A study of Mus musculus with 57 samples.

Results

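The end of a day spent without light was compared with its start in wild-type mouse visual cortex. The 4 libraries of the Dark ZT11.5 group were set against the 4 libraries of the Dark ZT0 group, 8 of the 57 libraries in the series, chosen by their labelled condition and time. ZT (Zeitgeber time) counts the hours from the usual lights-on, so ZT0 is the hour at which light was due and ZT11.5 falls shortly before the usual lights-off. All mice carried the genotype WT and lived under a cycle with equal hours of light and dark. For both groups the lights stayed off on the day the tissue was taken, so that neither had seen light since the evening before. The labels give no sex, age or strain. The labels call the 4 libraries of a group biological replicates, and nothing says that each came from its own animal. The p-values therefore measure only the spread between libraries, taken within groups over all 57 libraries of the series. The comparison addresses which transcripts of the visual cortex differ between the end and the start of the rest phase when neither group had light that day. The ZT11.5 group had also been in darkness for longer than the ZT0 group. Time of day and time since the last light therefore cannot be told apart.

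Mice are active at night and rest by day, and their body temperature falls and rises with this cycle. Within cells, the factors CLOCK and BMAL1 bind E-box sequences and drive the genes of their own repressors (the Per, Cry and Rev-erb families and Ciart), which closes the feedback loop of the circadian clock. The adrenal gland adds a daily wave of glucocorticoid hormone, which in nocturnal rodents rises towards the evening and acts on genes through the glucocorticoid receptor. In cortical neurons, firing and calcium entry switch on immediate-early genes such as Fos, Arc and Egr1, whose RNA lasts only a short time and so follows recent activity.

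RNA was measured by MARS-Seq, which reads short tags near the 3′ end of each poly(A) RNA, and values are normalised counts, meaning counts per gene after scaling by the size factor of the library. Library totals ran from 3.13 to 3.80 M reads at ZT0 and from 2.27 to 2.79 M reads at ZT11.5 and did not overlap, so depth and group cannot be told apart. Xist, which coats the inactive X chromosome, was 54.1 to 87.9 in replicates 3 and 4 of both groups and 0.773 to 3.96 in replicates 1 and 2, so both groups held the same split. Transcripts of neighbouring tissue varied between libraries. The choroid plexus gene Ttr ran from 65.1 to 1123 at ZT0 and from 286 to 20493 at ZT11.5. The thalamic gene Prkcd was 46.5 to 66.3 at ZT0, and 166, 97.9, 98.0 and 41.5 in the 4 ZT11.5 libraries. Tnnt1, another thalamic gene, went the same way, with 18.6 to 45.9 at ZT0 and 140, 78.1, 70.5 and 19.8 at ZT11.5. Malat1, a nuclear RNA, was 18.8 to 61.0 at ZT0 and 49.0 to 215 at ZT11.5. Genes of excitatory cortical neurons were abundant in all 8 libraries, with a summed level of 11945 to 14447 at ZT0 and 12895 to 13814 at ZT11.5 over 16 members.

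At the end of the dark day 52 genes were higher than at its start (0.494% of the 10526 tested) and 80 were lower (0.76%), by limma with an adjusted p under 0.05. The higher genes included clock-controlled genes, glucocorticoid-responsive genes and the cold-inducible Cirbp. The lower genes included immediate-early genes and chaperones of the endoplasmic reticulum. Differences were modest, with a median log2 difference of 0.56 among the higher and -0.51 among the lower genes. A doubling or more, on the log2(value + 1) scale, was reached by 7 higher genes, and 4 genes fell by as much. The groups did not overlap for 50 of the 52 higher and 72 of the 80 lower genes, against 9.72% of all genes tested. The genes were called on these same libraries, so their separation is no separate support for the calls. The median log2 difference over all genes was -0.00018.

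The count changed with single libraries and with the thalamic genes as a term, and further settings changed which genes were called. Without Dark ZT11.5 replicate 3 the counts were 20 higher and 29 lower, without Dark ZT0 replicate 3 they were 26 and 36, without Dark ZT0 replicate 2 24 and 47, without Dark ZT0 replicate 4 34 and 44, and without Dark ZT11.5 replicate 4 31 and 49. With the levels of Prkcd and Tnnt1 as a term in the model, an alternative chosen after seeing the data, 19 genes were higher and 20 lower, and 21 of the 43 named genes with a call kept it. DESeq2 on the recovered reads called 99 higher and 130 lower. With the spread taken from only the 2 groups compared, 155 genes were called, 91 of the 132 main calls were kept and 41 were lost.

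**Figure D1:**
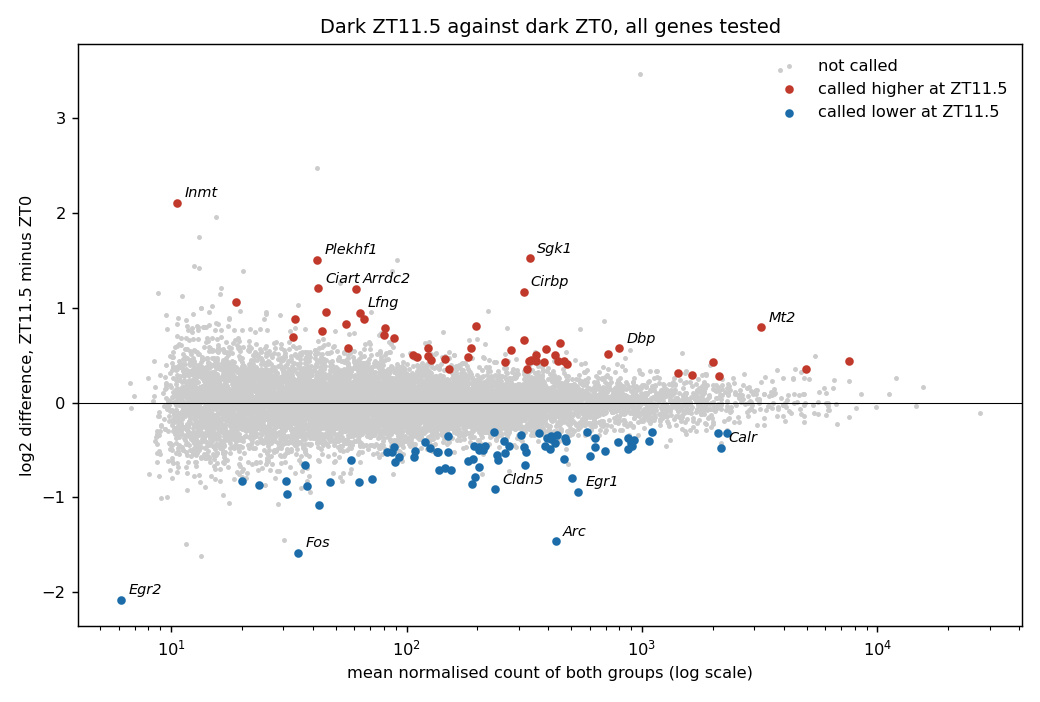
The mean normalised count of both groups on a log axis is plotted against the log2 difference between dark ZT11.5 and dark ZT0 for each of the 10526 genes tested. The 52 genes called higher are red and the 80 called lower are blue, with the cold-inducible gene Cirbp and the kinase gene Sgk1 among the red points and Egr2, Fos and Arc among the lowest blue points.

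Among clock genes, the repressors Ciart and Per3 and the outputs Dbp and Usp2 were higher in the evening. Of 9 clock repressors tested 2 were higher and 0 lower, of 6 output factors 2 were higher and 0 lower, and of 3 activators 0 were called by limma (2 at an unadjusted p under 0.05, 0 by edgeR, and Arntl by DESeq2), beside 0.494% of all genes higher. The medians of the 3 lists were 0.02, -0.01 and -0.10 on the log2 scale. Ciart, which encodes a repressor that acts on CLOCK and BMAL1, was 21.3, 16.2, 28.7 and 36.9 in the ZT0 libraries and 65.4, 61.3, 51.4 and 56.3 in the ZT11.5 libraries. All evening libraries lay above all dawn libraries (log2 difference 1.21, SE 0.27, adjusted p = 0.011 by limma). The call was lost without Dark ZT0 replicate 2 (adjusted p = 0.0801) and with the thalamic term (0.0657).

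The stretch of the Ciart promoter that holds its E-boxes is shown because CACGTG is the letter sequence to which CLOCK and BMAL1 bind. It lies at chr3:95882232-95882379 on the minus strand (GRCm38.p6, sequence from RefSeq), 151 to 4 bases before the start of the gene, and capitals mark 3 copies of CACGTG.
Ciart: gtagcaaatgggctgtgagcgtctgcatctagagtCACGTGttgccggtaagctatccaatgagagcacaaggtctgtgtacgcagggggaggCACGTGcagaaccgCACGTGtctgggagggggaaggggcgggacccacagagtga
Within windows from 250 bases before to 50 bases after the start, CACGTG (which reads the same on both strands) stood in 9 of the 45 higher genes that had a window (20%), in 11 of 58 lower genes (19.0%) and in 12.2% of the 8078 tested genes with one. Such a match describes the letters and does not show that a factor binds there.

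Dbp, a clock-driven transcription factor of the PAR bZIP family, was 630, 544, 662 and 737 at ZT0 and 1042, 972, 878 and 931 at ZT11.5. The groups were apart, with the evening mean 1.49-fold that of dawn (log2 difference 0.58, SE 0.13, adjusted p = 0.0077). The call was lost without Dark ZT0 replicate 2 (adjusted p = 0.0684), and Dbp overlaps Sphk2 on the other strand. Usp2, a deubiquitinase gene under clock control, was 329 ± 49.0 at ZT0 and 439 ± 25.9 at ZT11.5 (SD, n = 4 each), again without overlap (0.43, adjusted p = 0.019). Its call was lost without Dark ZT0 replicate 1 or 2 or Dark ZT11.5 replicate 3 or 4 (adjusted p up to 0.0951).

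Per3, a member of the Period family of repressors, was 38.5, 41.0, 51.5 and 47.6 at ZT0 and 52.9, 64.3, 70.5 and 83.0 at ZT11.5, and the highest dawn library lay just under the lowest evening one. The log2 difference of 0.58 (SE 0.16, adjusted p = 0.048) was close to the threshold, and the call was lost in each fit without 1 library except that without Dark ZT11.5 replicate 1 (adjusted p up to 0.201), and with the thalamic term (0.0922). It was also lost with no filter (adjusted p = 0.0707), only the groups compared (0.0873), and Ttr (0.0578) or Malat1 (0.123) as a term. Per3 overlaps the gene Camta1 on the same strand, with which it could share counts. Its promoter is shown for its D-boxes, the sequence to which Dbp and its relatives bind. It lies at chr4:151044781-151044905 on the minus strand (GRCm38.p6, RefSeq), 240 to 116 bases before the start, and capitals mark 2 copies of TTATGTAA.
Per3: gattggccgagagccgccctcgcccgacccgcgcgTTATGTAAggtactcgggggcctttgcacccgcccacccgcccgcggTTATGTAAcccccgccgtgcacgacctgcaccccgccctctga
The motif searched was TTANGTAA on both strands, where N is any base. It stood in 1 of the 45 higher genes with a window, which is Per3, in 0 of 58 lower genes and in 1.68% of the 8078 tested genes.

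The other members of the loop did not pass. Arntl, which encodes BMAL1, was 111, 128, 106 and 95.8 at ZT0 and 79.8, 64.3, 70.5 and 84.9 at ZT11.5, and its groups did not overlap (log2 difference -0.55, SE 0.17, adjusted p = 0.08). Per1 was 200 ± 27.1 and 223 ± 23.2 (0.16, adjusted p = 0.78), and Per2 was 45.0 ± 7.75 and 43.0 ± 9.02 (-0.07, adjusted p = 0.91). Nr1d1, which encodes the repressor Rev-erb alpha, was 519 ± 130 and 441 ± 59.2 (-0.21, adjusted p = 0.6). Values at 2 times do not show that a gene kept its level over the day.

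Cirbp had the smallest p-value of the comparison. It encodes an RNA-binding protein whose transcript is known to rise at lower body temperature in mouse cells and tissues. Its normalised counts were 188, 206, 163 and 214 at ZT0 and 459, 456, 456 and 370 at ZT11.5. The groups lay far apart, with an evening mean of 435 ± 43.3 that was 2.26-fold the dawn mean of 193 ± 22.6 (log2 difference 1.17, SE 0.17, adjusted p = 4.1e-05), and the call was kept under every setting tried. Rbm3, the other cold-inducible member, was 15.6, 13.1, 11.0 and 11.4 at ZT0 and 21.1, 22.7, 39.4 and 22.7 at ZT11.5. Its groups did not overlap either, but it did not pass (0.97, SE 0.29, adjusted p = 0.079). Cirbp and Rbm3 are the whole of that list.

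Of 17 glucocorticoid-responsive genes tested, 4 were higher in the evening, 1 was lower and 12 were not called, beside 0.494% and 0.76% of all genes. Of the 17, 14 had a log2 difference above 0, with a list median of 0.32 against -0.00018 over all genes. Sgk1, a kinase that regulates ion channels and is a standard target of the glucocorticoid receptor, was 146, 203, 175 and 163 at ZT0 and 430, 422, 527 and 612 at ZT11.5. The lowest evening library was above the highest dawn library by a wide margin, and the means differed 2.90-fold (log2 difference 1.53, SE 0.24, adjusted p = 0.00024). The call held under every setting tried.

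A stretch before one of the 6 annotated starts of Sgk1 is shown for its glucocorticoid response element, the inverted repeat that the receptor binds. It lies at chr10:21993640-21993749 on the plus strand (GRCm38.p6, RefSeq), 250 to 141 bases before that start, and capitals mark the E-box CACGTG and the element GAACAGAATGTTC.
Sgk1: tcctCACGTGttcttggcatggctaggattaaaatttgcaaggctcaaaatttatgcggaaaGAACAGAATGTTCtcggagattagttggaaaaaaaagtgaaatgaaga
The element was searched as GNACA and TGTNC with 3 bases between them, where N is any base, a pattern that reads the same on both strands. It stood in 2 of 45 higher genes with a window, Sgk1 and Txnip, in 0 of 58 lower genes and in 0.359% of the 8078 tested genes.

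Mt2, a metallothionein that binds zinc and copper, was 2092, 2094, 2588 and 2596 at ZT0 and 3678, 3476, 5036 and 4153 at ZT11.5, with no overlap (log2 difference 0.80, SE 0.14, adjusted p = 0.00059). Nfkbia, which encodes the inhibitor of NF-kappa-B, was 133, 126, 156 and 152 at ZT0 and 234, 219, 312 and 238 at ZT11.5 (0.81, SE 0.16, adjusted p = 0.0023). Tsc22d3, which encodes the leucine zipper protein GILZ, was 261, 229, 239 and 246 at ZT0 and 345, 329, 466 and 412 at ZT11.5 (0.66, SE 0.15, adjusted p = 0.011). In all 3 genes every evening library lay above every dawn library, and Dark ZT11.5 replicate 3 was the highest. Without that replicate the call of Tsc22d3 was lost (adjusted p = 0.113), while Mt2 and Nfkbia kept theirs. Mt2 overlaps the gene model Gm45774 on the other strand.

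Several members showed separate groups without passing by limma. The lipid droplet gene Plin4 was 2.46, 5.41, 11.0 and 4.26 at ZT0 and 18.3, 11.9, 25.1 and 26.7 at ZT11.5 (log2 difference 1.75, SE 0.51, adjusted p = 0.066). Hif3a, a hypoxia-inducible factor, was 9.58 ± 2.90 and 22.7 ± 7.27 (1.15, adjusted p = 0.085 by limma), while edgeR called it. Fkbp5, a co-chaperone of the glucocorticoid receptor, was 146 ± 9.61 and 195 ± 20.8 (0.41, adjusted p = 0.19). Not all members followed, since the transcription factor gene Klf9 was 433 ± 94.0 at ZT0 and 337 ± 40.5 at ZT11.5 (-0.34, adjusted p = 0.42). The receptor itself, Nr3c1, lay outside the rule for naming genes and was picked with its values known. It was 338, 367, 358 and 309 at ZT0 and 268, 277, 290 and 245 at ZT11.5 (-0.34, SE 0.08, adjusted p = 0.019). The call of this fall was lost without Dark ZT0 replicate 2 or 3 or Dark ZT11.5 replicate 4 (adjusted p up to 0.0943). It was also lost with only the groups compared (0.0639), with the thalamic term (0.0885) and with Ttr as a term (0.0834).

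**Figure D2:**
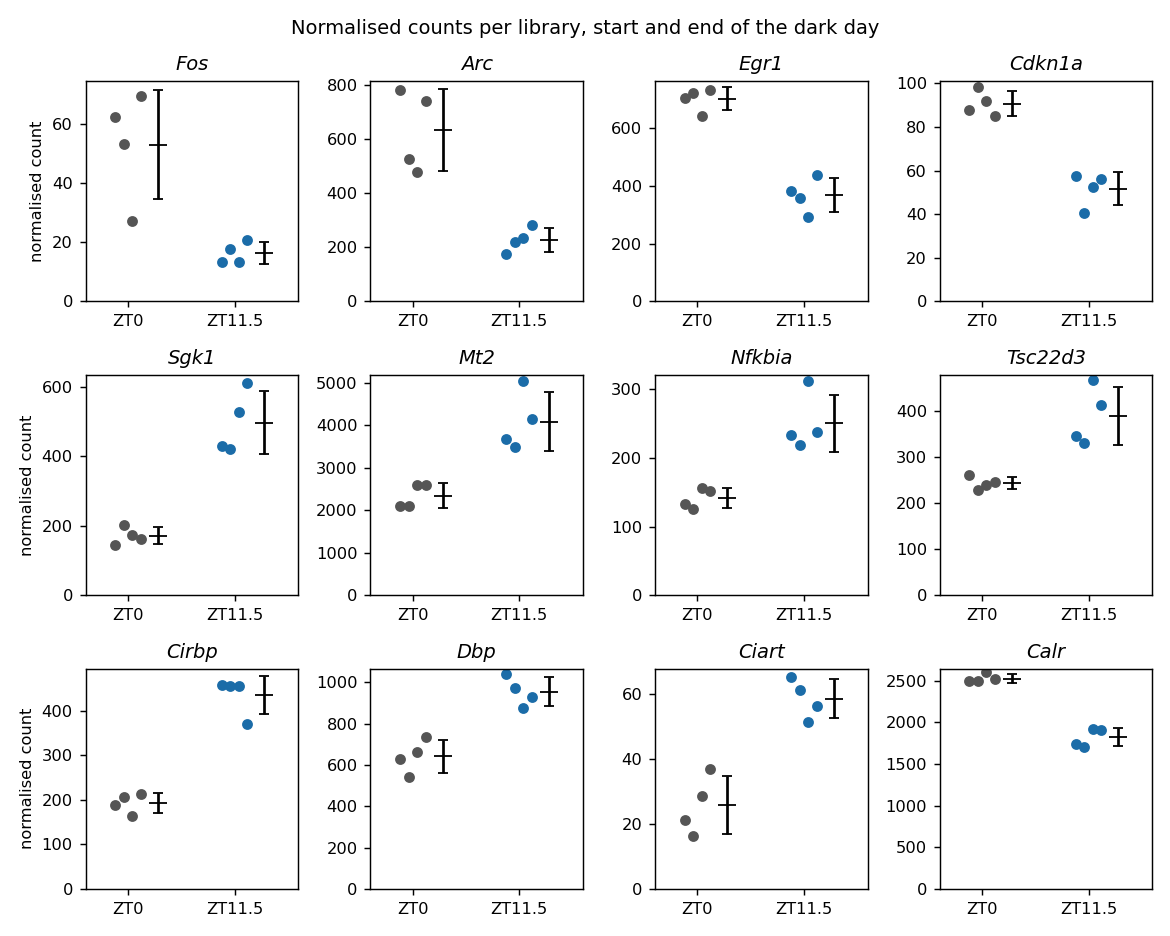
Each panel plots the normalised counts of 1 gene in the 4 ZT0 libraries (grey) and the 4 ZT11.5 libraries (blue), on an axis from 0, with the mean and SD beside the points. Fos, Arc, Egr1, Cdkn1a and Calr lie lower and the other 7 genes higher at ZT11.5, and in none of the 12 panels do the groups overlap.

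Of 21 immediate-early genes tested, 5 fell over the dark day, 0 rose and 16 were not called, beside 0.76% of all genes lower, and 19 of the 21 had a log2 difference below 0, with a median of -0.53. Egr1, a zinc finger transcription factor, was 707, 724, 645 and 733 at ZT0 and 383, 359, 294 and 439 at ZT11.5. The dawn libraries were close together and all above the evening ones (log2 difference -0.94, SE 0.17, adjusted p = 0.00046), and the call was kept under every setting tried. Fos, one partner in the AP-1 dimer, was 62.2, 53.4, 27.0 and 69.6 at ZT0 and 13.5, 17.8, 13.1 and 20.7 at ZT11.5. The dawn libraries varied more, with replicate 3 the lowest, but none reached down to the evening ones (-1.59, SE 0.34, adjusted p = 0.0069).

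Arc, whose protein is a regulator of synaptic strength, was 781, 527, 479 and 740 at ZT0 and 173, 218, 235 and 281 at ZT11.5. The dawn mean of 632 ± 151 was 2.78-fold the evening mean of 227 ± 44.9 (log2 difference -1.46, SE 0.32, adjusted p = 0.0072). Fos and Arc kept their calls in all 8 fits without 1 library and lost them with the levels of Prkcd and Tnnt1 as a term (adjusted p = 0.0797 and 0.132). Egr2, a relative of Egr1, was 18.0, 10.1, 5.91 and 7.81 at ZT0 and 0, 2.97, 2.39 and 1.98 at ZT11.5, from 53 and 7 reads in all. It had the largest fall of the comparison on the log2(value + 1) scale (-2.08, SE 0.54, adjusted p = 0.037). The call was lost in each fit without 1 library except those without Dark ZT0 replicate 3 or Dark ZT11.5 replicate 2 (adjusted p up to 0.146). It was also lost by edgeR (0.087) and with the thalamic term (0.168). A pseudocount of 5 (0.0796), no filter (0.0761) and Malat1 as a term (0.0937) lost it too.

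The nuclear receptor Nr4a2 also fell, from 40.8 ± 8.17 to 21.3 ± 8.64 (log2 difference -0.96, adjusted p = 0.037), with overlapping groups and a call lost without Dark ZT0 replicate 1, 2 or 3 or Dark ZT11.5 replicate 3 or 4 (adjusted p up to 0.19) or with the thalamic term (0.186). The Nr4a2 call was also lost with no filter (0.0707), only the groups compared (0.0732) and edgeR (0.0509). Ttr (0.0673) or Malat1 (0.124) as a term lost it too. Its relative Nr4a1 was 368, 359, 303 and 329 at ZT0 and 198, 197, 202 and 221 at ZT11.5, clear of overlap. It was just outside the threshold by limma (-0.73, SE 0.20, adjusted p = 0.053), while DESeq2 called it. Junb, an AP-1 factor, was 593 ± 115 and 377 ± 63.3 (-0.65, adjusted p = 0.17), and the neuronal factor Npas4 was 40.2 ± 22.3 and 16.8 ± 2.76 (-1.07, adjusted p = 0.22). Members differed in size of change, with Egr3 at 187 ± 17.3 and 146 ± 21.2 (-0.36, adjusted p = 0.15) and Egr4 at 170 ± 17.7 and 156 ± 20.7 (-0.13, adjusted p = 0.82).

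The later-acting activity effector genes, among them growth factors, synaptic proteins and signalling enzymes, had 1 call among 19 tested, a fall, with a median log2 difference of -0.07. An unadjusted p under 0.05 was reached by 7 of them, and DESeq2 called Inhba beside Cdkn1a. The gene that fell was Cdkn1a, the cell cycle inhibitor p21, which is also a member of the glucocorticoid-responsive list. It was 87.6, 98.2, 92.1 and 85.2 at ZT0 and 57.7, 40.5, 52.6 and 56.3 at ZT11.5, so that all evening libraries were lower (-0.81, SE 0.16, adjusted p = 0.0025). Gadd45a, a growth arrest gene outside these lists, was 80.3 ± 8.12 at ZT0 and 45.0 ± 9.66 at ZT11.5, without overlap (-0.84, adjusted p = 0.0018). Both kept their calls under every setting tried, and Gadd45a overlaps the gene model E230016M11Rik on the other strand.

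Among chaperones and related genes of the endoplasmic reticulum, where secreted and membrane proteins are folded, 3 of 17 tested fell and 0 rose, beside 0.76% of all genes lower. Of the 17, 12 had a log2 difference below 0 and 5 above, with a median of -0.30. Calr, the calcium-binding chaperone calreticulin, was 2492, 2490, 2600 and 2520 at ZT0 and 1743, 1709, 1916 and 1906 at ZT11.5. The change was small but the libraries of a group were close together, and the groups were well apart (log2 difference -0.48, SE 0.08, adjusted p = 0.00024). Pdia6, a protein disulfide isomerase, was 697, 757, 806 and 664 at ZT0 and 510, 489, 563 and 551 at ZT11.5 (-0.47, SE 0.08, adjusted p = 0.00046). Calr and Pdia6 kept their calls under every setting tried.

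The promoters of both genes are shown for the ER stress response element, which the unfolded protein response factors ATF6 and XBP1 are known to use. The Calr stretch lies at chr8:84847040-84847128 on the minus strand, 197 to 109 bases before the start, and the Pdia6 stretch at chr12:17266456-17266544 on the plus strand, 133 to 45 bases before the start (GRCm38.p6, RefSeq). Capitals mark the element.
Calr: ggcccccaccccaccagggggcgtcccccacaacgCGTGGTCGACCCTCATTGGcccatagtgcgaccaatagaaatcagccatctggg
Pdia6: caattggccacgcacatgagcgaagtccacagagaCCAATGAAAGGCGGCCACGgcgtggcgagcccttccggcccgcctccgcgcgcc
The element was searched as CCAAT and CCACG with 9 bases between them, on both strands, and in Calr it stands in the reverse orientation. It stood in 2 of the 58 lower genes with a window, which are these, in 0 of 45 higher genes and in 0.136% of the 8078 tested genes. Pdia6 overlaps Atp6v1c2 on the other strand.

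Sel1l, part of the machinery that removes misfolded proteins from the endoplasmic reticulum, was the remaining call of the list, at 532 ± 42.9 and 411 ± 21.6 (log2 difference -0.37, adjusted p = 0.024). It was lost without Dark ZT0 replicate 3 or 4 or Dark ZT11.5 replicate 1 or 3 (adjusted p up to 0.104), with the thalamic term (0.245) and with Ttr as a term (0.0665). The master chaperone Hspa5 (BiP) was 464, 389, 400 and 380 at ZT0 and 289, 235, 363 and 361 at ZT11.5, lower in every evening library but not past the threshold (-0.40, SE 0.13, adjusted p = 0.12). The factor Xbp1 was 533 ± 42.2 and 434 ± 28.9 (-0.30, adjusted p = 0.081 by limma), while DESeq2 called it.

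Heat shock chaperones of the cytosol and mitochondria did not pass singly. Of 21 tested 0 were called by limma or edgeR and 2 by DESeq2 (Hsph1 and Dnajb5), with 10 at an unadjusted p under 0.05 by limma, while 18 had a log2 difference below 0 and the list median was -0.20. Hsph1, a nucleotide exchange factor for HSP70, was 716, 722, 684 and 696 at ZT0 and 476, 576, 550 and 594 at ZT11.5, without overlap (-0.36, SE 0.11, adjusted p = 0.063). The inducible HSP70 gene Hspa1b was 90.3 ± 4.84 and 61.7 ± 14.4 (-0.57, adjusted p = 0.12), and the constitutive Hspa8 was 5197 ± 247 and 4525 ± 447 (-0.20, adjusted p = 0.22). Hspa1b has a near-identical copy, Hspa1a, from which its 3′ tags may not be separable.

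Among cytosolic ribosomal proteins 3 of 34 were higher and 0 lower. Of the 34, 29 had a log2 difference above 0, with a median of 0.13, and all 3 belong to families with near-identical copies, so their counts are uncertain. Rpl35 was 592 ± 28.6 at ZT0 and 847 ± 52.8 at ZT11.5 (0.51, adjusted p = 0.0011), and Rps20 and Rpl4 had log2 differences of 0.43 and 0.36. Without Dark ZT11.5 replicate 3 the calls of Rps20 and Rpl4 were lost (adjusted p = 0.162 and 0.222), as they were with the thalamic term (0.16 and 0.217), and each was lost in other fits without 1 library as well. Rpl4 also lost its call with no filter (0.0957), only the groups compared (0.0622), and Ttr (0.0508) or Malat1 (0.0926) as a term. Among oxidative phosphorylation subunits 1 of 29 was higher, the complex I gene Ndufa2 at 1456 ± 72.5 and 1790 ± 152 (0.30, adjusted p = 0.041). That call was kept only in the fits without Dark ZT0 replicate 4 or Dark ZT11.5 replicate 1 (adjusted p otherwise up to 0.224) and was lost with the thalamic term (0.244), and 25 of the 29 members had a difference above 0 with a median of 0.12. Ndufa2 also lost its call with no filter (0.0604) and with only the groups compared (0.0644). None of 19 cholesterol synthesis and uptake genes and none of 27 potassium channel genes was called by limma, with medians of 0.03 and 0.0047, nor by edgeR or DESeq2. At an unadjusted p under 0.05 there were 2 of the former and 1 of the latter.

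**Figure D3:**
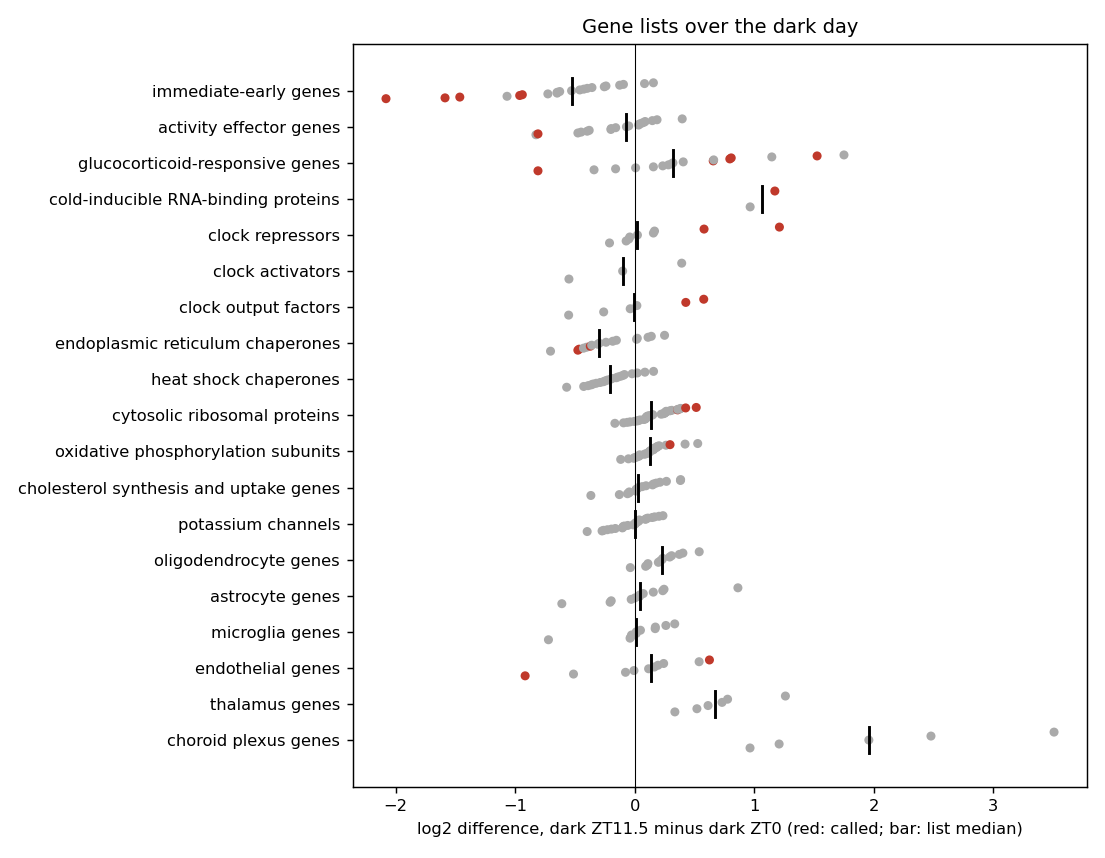
Each point is 1 tested gene of a list, placed by its log2 difference between dark ZT11.5 and dark ZT0, with red for genes called by limma and a bar at the list median. The immediate-early list has a median of -0.53 with 5 called genes, the glucocorticoid-responsive list 0.32 with 4 higher and 1 lower, and the choroid plexus list 1.96 with none called.

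Genes of single cell types were called here and there rather than as lists. In bulk tissue fewer cells of a type and less RNA per cell cannot be told apart. Cldn5, the claudin that seals endothelial tight junctions of the blood-brain barrier, was 307, 361, 289 and 290 at ZT0 and 146, 165, 180 and 166 at ZT11.5. The dawn mean was 1.90-fold the evening mean, and the groups were far apart (log2 difference -0.92, SE 0.15, adjusted p = 0.00024). Slc2a1, the glucose transporter GLUT1 of the same barrier, went the other way, with 364, 353, 382 and 304 at ZT0 and 470, 487, 692 and 536 at ZT11.5 (0.62, SE 0.15, adjusted p = 0.02). Cldn5 kept its call under every setting tried, while that of Slc2a1 was lost without Dark ZT0 replicate 2 or 4 or Dark ZT11.5 replicate 3 (adjusted p up to 0.162) and with the thalamic term (0.168). The other 8 endothelial genes tested were not called, the list median was 0.14, and its summed level was 3266 to 3655 at ZT0 and 3632 to 3998 at ZT11.5.

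Gpr17, a receptor of differentiating oligodendrocyte precursors, was 192, 192, 170 and 165 at ZT0 and 130, 93.0, 115 and 108 at ZT11.5, without overlap (log2 difference -0.69, SE 0.14, adjusted p = 0.0038). It was the sole call among 6 precursor genes, whose median was -0.03, and it overlaps Lims2 on the other strand. Crh, the neuropeptide corticotropin-releasing hormone, which in the cortex is made by interneurons, was 53.2, 46.4, 49.8 and 44.7 at ZT0 and 37.5, 24.7, 17.9 and 26.7 at ZT11.5. All dawn libraries lay above all evening ones (-0.88, SE 0.20, adjusted p = 0.0094), and the call was lost without Dark ZT11.5 replicate 3 (adjusted p = 0.134). It was the sole call among 16 interneuron genes, with a median of -0.04.

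No gene was called among 15 excitatory neuron, 12 astrocyte, 13 oligodendrocyte, 11 microglia, 7 mural, 5 meningeal, 6 hippocampal and 6 striatal genes, with list medians from -0.14 to 0.23, by limma or edgeR. DESeq2 called 0 of the astrocyte, oligodendrocyte, microglia, mural, meningeal, hippocampal and striatal genes. An unadjusted p under 0.05 by limma was reached by 4 excitatory neuron, 3 astrocyte, 5 oligodendrocyte, 1 microglia and 1 striatal gene and 0 of the others. By limma and edgeR none was called either among 6 thalamic and 5 choroid plexus genes, where the spread within a group was wide. The thalamic list summed to 297 to 424 at ZT0 and 317 to 765 at ZT11.5 over 7 members (median log2 difference 0.67), and the choroid plexus list to 212 to 1295 and 453 to 21668 over 8 members (1.96). At an unadjusted p under 0.05 there were 3 of the 6 and 5 of the 5, and DESeq2 called the thalamic gene Ramp3 and the choroid plexus gene Ttr. The blood list had 1 member tested, with 4 of its 5 members at 0 in all 8 libraries. The part of these tissues in the results was not tested beyond the fits with Prkcd and Tnnt1 or with Ttr as a term.

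Among the remaining largest differences, the higher genes held Inmt, an indolethylamine methyltransferase. It was 3.28, 1.55, 4.22 and 2.84 at ZT0 and 29.8, 8.90, 8.36 and 25.7 at ZT11.5, from 15 and 73 reads. The evening libraries formed a low and a high pair, both above every dawn library (log2 difference 2.11, SE 0.42, adjusted p = 0.0025). Arrdc2, an arrestin-domain gene, was 39.3, 33.3, 39.7 and 33.4 at ZT0 and 72.1, 75.2, 99.2 and 95.8 at ZT11.5 (1.2, SE 0.20, adjusted p = 0.00037). Lfng, a glycosyltransferase that modifies Notch, was 36.9, 45.6, 38.9 and 51.8 at ZT0 and 72.1, 84.1, 87.2 and 92.8 at ZT11.5 (0.95, SE 0.16, adjusted p = 0.00024). These 3 genes were free of overlap between groups and kept their calls under every setting tried.

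Plekhf1, which encodes an endosomal protein, was 26.2, 21.7, 16.9 and 19.2 at ZT0 and 51.9, 52.4, 90.8 and 55.3 at ZT11.5, with replicate 3 far above the rest of its group (log2 difference 1.51, SE 0.32, adjusted p = 0.0047). Without that replicate it was just outside the threshold (adjusted p = 0.0563), and with the thalamic term its adjusted p was 0.0839. Ppcs, an enzyme of coenzyme A synthesis, was 31.3 ± 8.23 and 60.0 ± 2.92 (0.96, adjusted p = 0.005), lost without Dark ZT0 replicate 3 (0.0671) and with the thalamic term (0.0791). The tetraspanin Tspan4, which overlaps Chid1, was 59.4 ± 12.0 and 103 ± 13.8 (0.79, adjusted p = 0.00097) and kept its call throughout.

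Also higher were Neurl2 (log2 difference 1.07), the procollagen gene Pcolce2 (0.89), the galactosyltransferase gene B3galt5 (0.88) and the LIM-domain gene Crip1 (0.83), each with a call that was lost in 3 to 7 of the 8 fits without 1 library, that without Dark ZT11.5 replicate 3 among them. Among the lower genes, the TEAD cofactor gene Vgll4 (-1.08), the adaptor gene Sh2b3 (-0.87), Elfn2 (-0.86), Raph1 (-0.83) and the zinc finger gene Hic2 (-0.83) lost their calls in 3 to 6 of those fits, again with that one among them for all but Hic2. With the thalamic term all of these calls except that of Crip1 were lost. Under other settings still, the calls of Neurl2, Pcolce2, Crip1, Vgll4, Sh2b3, Raph1 and Hic2 were lost too. The orphan receptor gene Gpr83 was 63.1, 59.6, 59.1 and 62.5 at ZT0 and 33.6, 37.6, 27.5 and 36.5 at ZT11.5 (-0.84, SE 0.19, adjusted p = 0.011). Its dawn libraries were nearly equal and stood well above the evening ones, and its call was lost without Dark ZT11.5 replicate 3 (adjusted p = 0.101) and with the thalamic term (0.104).

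The other times of the dark day show where ZT0 and ZT11.5 lie on each gene's course. Cirbp had group means of 193, 176 and 190 at ZT0, ZT1 and ZT3, then 314 at ZT7.5, 435 at ZT11.5 and 442 at ZT13, and 328 and 284 at ZT15 and ZT18. Its ZT0 mean was thus among its lowest and its ZT11.5 mean among its highest. Sgk1 stayed between 171 and 213 from ZT0 to ZT7.5, was 498 at ZT11.5 and 439 at ZT13, and was 301 and 168 at ZT15 and ZT18. Dbp had its lowest dark mean, 643, at ZT0 and was 956 at ZT11.5 and 998 at ZT13 and ZT15.

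Among genes that fell, Egr1, Fos, Calr and Cldn5 had their lowest dark mean at ZT11.5. Egr1 had dark means of 702, 778, 756 and 600 from ZT0 to ZT7.5, 369 at ZT11.5, and 636, 690 and 774 at the following 3 times. Fos went from 53.1 at ZT0 through 48.9, 44.5 and 30.2 to 16.3 at ZT11.5, and was 51.2, 59.7 and 64.9 afterwards. Arc differed in shape, since it was already 317 at ZT1 and 210 at ZT7.5, against 632 at ZT0 and 227 at ZT11.5. Calr was 2526 at ZT0 and lowest at ZT11.5 with 1818, and Cldn5 was 312 at ZT0, lowest at ZT11.5 with 164, and 309 at ZT18. SDs of these means are drawn in the plot of day courses, and neighbouring times were not tested against each other.

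**Figure D4:**
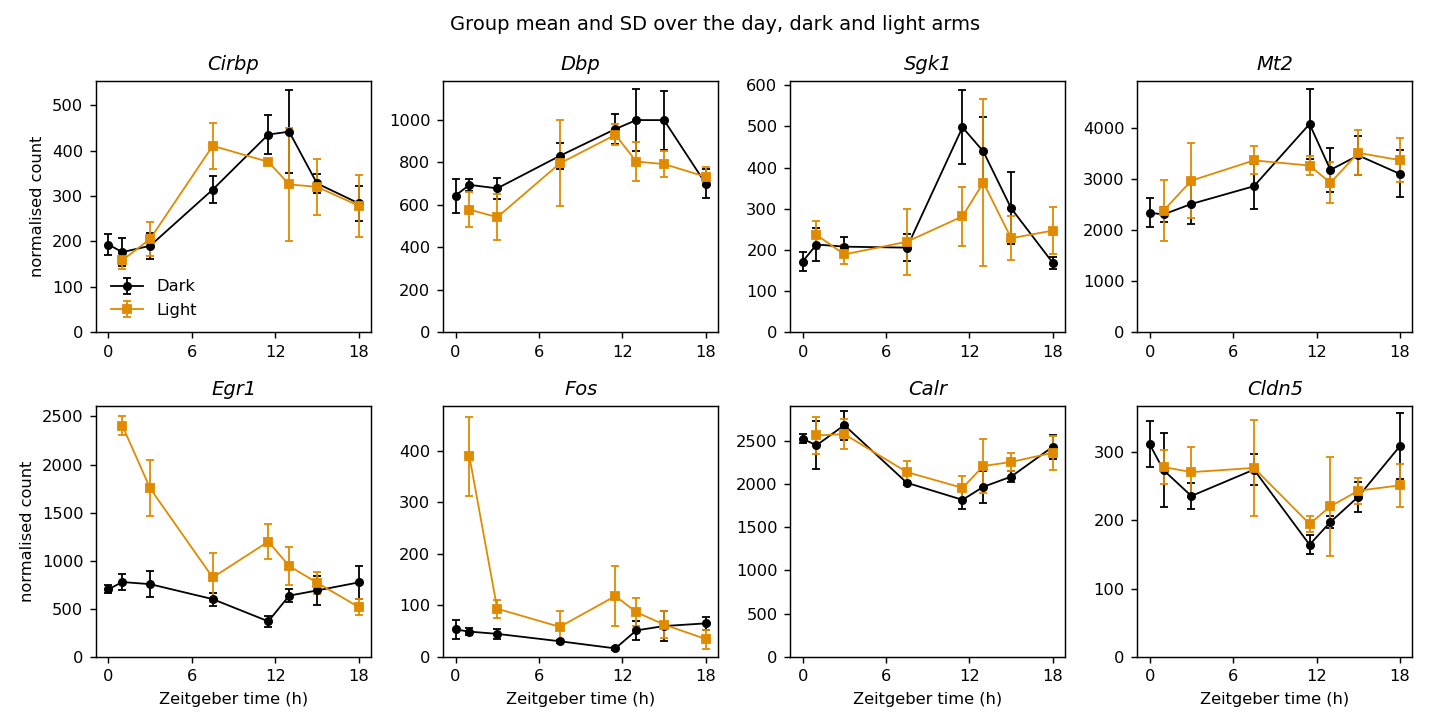
Group means with SD of normalised counts are plotted against Zeitgeber time in hours for 8 genes, in black for the dark arm and orange for the light arm. In the dark arm ZT11.5 holds the lowest means of Egr1, Fos, Calr and Cldn5 and the highest means of Sgk1 and Mt2.

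Libraries that the comparison did not use gave a second look at its genes. Light ZT11.5 was compared with Light ZT1 (4 libraries each, with usual light that day) and Dark ZT13 with Dark ZT1 (3 each), both about as far apart in time and sharing no library with the groups above. In light, 88 genes were higher (0.836%) and 91 lower (0.865%), 1.7% in either direction. Of the 52 genes higher over the dark day, 50 had the same direction, beside 49.4% of all genes, and 14 (26.9%) were called there. Of the 80 lower genes, 73 had the same direction, beside 50.6% of all genes, and 14 (17.5%) were called. None of the 132 was called in the opposite direction. Light ZT1 followed the onset of light, with Fos at 389 against 48.9 at Dark ZT1 and Egr2 at 185 against 14.2. The falls of Arc, Egr1, Egr2, Fos and Nr4a2 among the 14 thus started from higher levels and need not repeat the dark-day change. Between Dark ZT1 and Dark ZT13, 110 genes were higher (1.05%) and 36 lower (0.342%), 1.39% in either direction.

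In that dark pair 47 of the 52 higher genes had the same direction, beside 49.6% of all genes, and 14 were called. Of the 80 lower genes 62 had the same direction, beside 50.4% of all genes. Of these 80, 3 were called the same way and 1 (Kctd1, log2 difference 0.41) the opposite way. The 3 were Cdkn1a, Pdia6 and Scube1, the last of which, like Kctd1, was picked outside the naming rule with its values known. The main calls of Scube1 and Kctd1 were lost in 6 of the 8 fits without 1 library. Their adjusted p was up to 0.265 and 0.162, both without Dark ZT11.5 replicate 3. Both calls were also lost with the thalamic term (0.184 and 0.257) and under some other settings. The count of this pair depended on single libraries, with 146 called in all, 32 without Dark ZT13 replicate 2, 42 without Dark ZT1 replicate 2, 50 without Dark ZT1 replicate 1, 90 without Dark ZT13 replicate 3 and 318 without Dark ZT1 replicate 3. In light, 179 were called in all, 91 and 95 without Light ZT11.5 replicate 2 or 3, 106 to 119 without Light ZT11.5 replicate 1 or Light ZT1 replicate 2, 3 or 4.

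Called in the same direction in all 3 comparisons were 9 genes, 7 higher and 2 lower. The lower ones were Cdkn1a and Pdia6. The higher ones were Cirbp and Slc2a1, together with Chpf2, Eml2, Pllp, Sin3b and Wdr6, which the naming rule does not cover and which were picked with their values known. Pllp encodes a myelin membrane protein, Sin3b a corepressor of transcription, Chpf2 an enzyme of chondroitin sulfate synthesis and Eml2 a microtubule-binding protein. Their log2 differences over the dark day were between 0.44 and 0.58, and Wdr6 was 351 ± 17.9 at ZT0 and 499 ± 41.0 at ZT11.5 (0.50, adjusted p = 0.00037). Wdr6 and Sin3b kept their main calls in all 8 fits without 1 library. Pllp lost its call without Dark ZT0 replicate 3 (0.0583). Chpf2 lost it without Dark ZT0 replicate 2 or 4 or Dark ZT11.5 replicate 1 or 2 (up to 0.1). Eml2 lost it without Dark ZT0 replicate 1 or 4 or Dark ZT11.5 replicate 1 or 3 (up to 0.162). With the thalamic term Pllp, Chpf2 and Eml2 lost their main calls (adjusted p = 0.0839, 0.16 and 0.147). With Ttr as a term Chpf2 (0.099) and Eml2 (0.0632) lost theirs.

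The values in these libraries varied between groups of genes. Cirbp had log2 differences of 1.25 (adjusted p = 6.5e-06) between Light ZT1 and Light ZT11.5 and 1.31 (adjusted p = 4.6e-05) between Dark ZT1 and Dark ZT13, close to the 1.17 above. Sgk1 had 0.23 (adjusted p = 0.76) in light and 1.04 (adjusted p = 0.042) between Dark ZT1 and Dark ZT13, and Arrdc2 had 0.28 (0.61) and 1.33 (0.00074). Tsc22d3 and Nfkbia had adjusted p = 0.0049 and 0.033 in the dark pair and 0.17 and 0.3 in light. Among the clock genes, Ciart had 0.00064 (adjusted p = 0.999) in light and 0.68 (0.3) in the dark pair, and Usp2 0.08 (0.82) and 0.08 (0.8). Dbp had 0.69 (0.0007) in light and 0.52 (0.058) in the dark pair, and Per3 0.43 (0.18) and 0.86 (0.0068). Whether the light and dark changes of these genes differ from each other was not tested.

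Fos, Egr1 and Arc were called in the light pair and not in the dark pair, a difference between pairs that was not tested itself. Fos had a log2 difference of -1.84 (adjusted p = 0.00091) between Light ZT1 and Light ZT11.5, where ZT1 followed the onset of light, and 0.01 (adjusted p = 1.00) between Dark ZT1 and Dark ZT13. Egr1 had -1.02 (adjusted p = 0.0001) and -0.29 (adjusted p = 0.51), and Arc -1.49 (adjusted p = 0.0047) and 0.47 (adjusted p = 0.6). The dark means of Fos and Egr1 at ZT13, 51.2 and 636, were near their ZT0 means, so the low evening values stood at ZT11.5 and not at the later time.

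**Figure D5:**
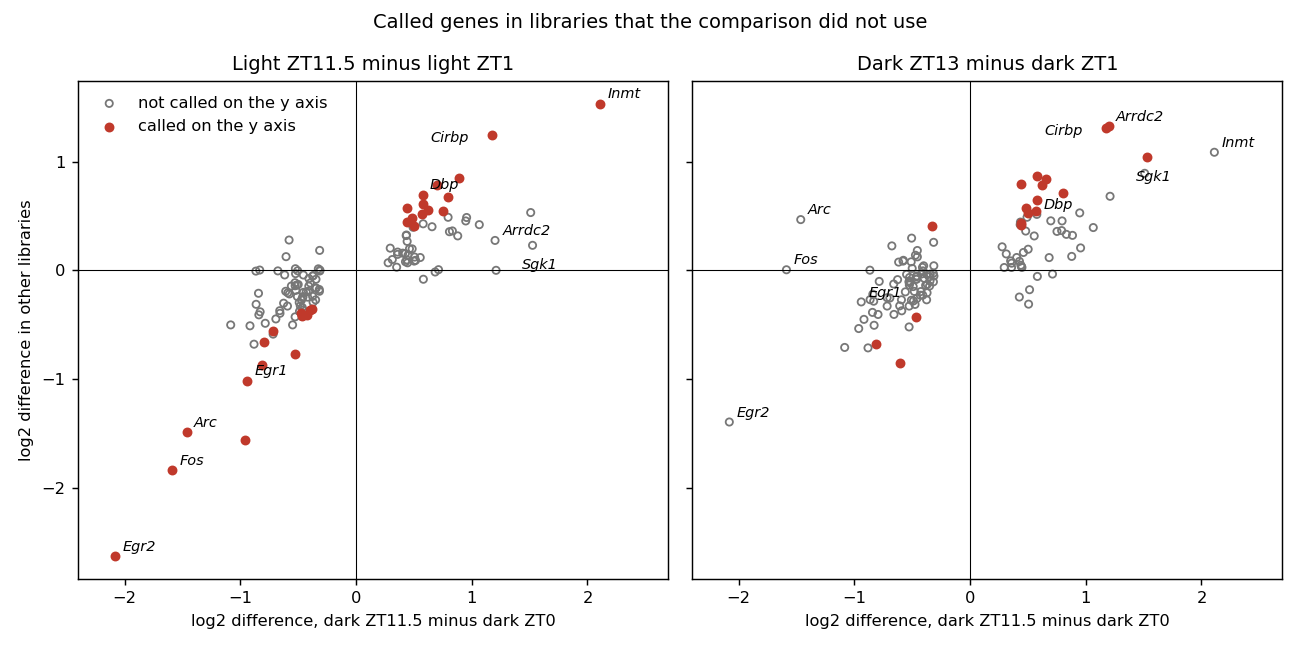
The 132 called genes are placed by their log2 difference between dark ZT11.5 and dark ZT0 and by that between Light ZT11.5 and Light ZT1 (left) or between Dark ZT13 and Dark ZT1 (right), with filled red points for genes called on the vertical axis. Cirbp lies high in both panels, Sgk1 and Arrdc2 are red only on the right, and Fos, Arc and Egr1 are red only on the left.

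The ZT11.5 libraries can also be set beside those taken at the same time after a lit day, which share the Dark ZT11.5 libraries with the main comparison and so are given side by side. Egr1 was 1198 ± 183 after light and 369 ± 60.2 in the dark, Fos 118 ± 57.9 and 16.3 ± 3.65, and Sgk1 281 ± 71.9 and 498 ± 90. Cirbp was 375 ± 4.83 and 435 ± 43.3, and Dbp 929 ± 50.3 and 956 ± 69.1.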

How the data were processed

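MARS-Seq libraries of visual cortex RNA were compared as labelled. The submitters' processing notes name cutadapt, STAR 2.5.2b, DESeq2 and the mm10 build. Neither the labels nor the files give the annotation, the strand setting or the use of molecular identifiers, so overlapping genes may share counts. The signal values deposited by the authors behave as counts scaled by 1 size factor for each library. Rows with date names (27 of 24421, 0.294% to 0.363% of a library's reads) were left out. Whole reads were recovered from the spacing of low values. In every library at least 99.9959% of values were within 0.01 of a whole number, and for Dark ZT11.5 replicate 2, where 1 read was worth about 1 unit, this spacing could not be checked independently. Totals over the 57 libraries were 1.64 to 4.32 M reads, which limits the precision of low genes. No replicate pair agreed within counting noise (chi-square per degree of freedom 2.30 to 6.93).

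Genes with a mean of at least 10 (10526) were tested by limma 3.58.1 with trend in R 4.3.3 on log2(value + 1), a scale that understates changes of low genes. All 57 libraries in 15 groups entered (42 residual degrees of freedom), with Benjamini-Hochberg adjustment and two-sided tests at 0.05. Members and gene lists were chosen with earlier results of these data known. The text names, among called genes, the 15 largest rises and 15 largest falls at most (without unnamed models and near-identical copies), members of the immediate-early, clock, glucocorticoid, heat shock, ER chaperone and cold-inducible lists, and at most 4 members, those of smallest p, from any further list. Alternatives were a pseudocount of 5, no filter, a minimum mean of 50, TMM rescaling, only the groups compared, a replicate block, terms for replicates 3 and 4 against 1 and 2, each library left out, edgeR 4.0.16 and DESeq2 1.42.0 on recovered reads, and, added after seeing the data, Prkcd and Tnnt1, Ttr or Malat1 levels as terms. Promoter windows and their coordinates come from RefSeq (GRCm38.p6), and overlaps between genes from the GENCODE annotation of GRCm38.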

Additional observations from a re-analysis of the deposited data

Results flagged for a closer look

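In 7 of 160 sets of 4 libraries (4.38%) 1 library stood apart from the other 3 by Dixon's test, whose nominal rate is 1 in 20. The sets share libraries and are not independent, so that rate is no yardstick here. At ZT11.5 replicate 3 held 4 of them. Plekhf1 was 90.8 there against 51.9 to 55.3, Ndufa2 2016 against 1699 to 1744, Junb 282 against 407 to 410, and Rbm3 39.4 against 21.1 to 22.7. Cirbp was 370 in Dark ZT11.5 replicate 4 against 456 to 459 in the others. In Dark ZT0 replicate 3, Pllp was 273 against 324 to 333 and Sin3b 239 against 295 to 300. No cause was tested.

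Of the genes printed, 10 differed between the lit and the dark day at ZT11.5 by limma, where 14 genes were higher after light (0.133%) and 2 lower (0.019%). The log2 differences, Light ZT11.5 minus Dark ZT11.5, were 3.57 for Egr2, 2.66 for Fos, 1.46 for Arc, 1.70 for Egr1, 1.27 for Nr4a1, 1.03 for Junb, 0.55 for Egr3 and 1.08 for Egr4. The adaptor gene Sh2b3 had 1.25 and the growth arrest gene Gadd45a 0.72. These values use the Dark ZT11.5 libraries of the main comparison, and most of these genes were printed for their low values there, so they are no separate support for it.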

How the results depend on the processing

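Of the 43 named calls, 18 were kept whichever library was left out, 20 under every other setting and 16 under both. With 1 library left out, 20 to 44 genes were higher and 29 to 83 lower. DESeq2 on recovered reads called 99 higher and 130 lower, and the Prkcd and Tnnt1 term left 19 and 20, all 39 of them among the 132. The cause was not tested. With the replicate block 154 genes were called, with 131 of the 132, and it changed no named call. Same-numbered libraries of the 2 groups correlated at 0.0030 to 0.168, with 1 of 4 pairs over 0.1, and differently numbered ones at -0.159 to 0.135. Of the 8 libraries 5 correlated best with their own number. Whether the numbers pair the libraries was not tested beyond the fit with the replicate block. Terms for replicates 3 and 4 gave 186, with all 132. With Ttr as a term 113 genes were called, with 90 of the 132, and with Malat1 124, with 86. Per2 (-0.07) ran from -0.19 to 0.0273 with 1 library left out, turning positive without Dark ZT0 replicate 3 or Dark ZT11.5 replicate 2 (0.0092) or 3 (0.0059). Light ZT11.5 against Light ZT1 gave 179 calls, 91 to 149 with 1 library left out. Dark ZT13 against Dark ZT1 gave 146, 24 with only the groups compared, 222 by DESeq2 and 32 to 318 with 1 library left out. Light against Dark at ZT11.5 gave 16, 10 with terms for replicates 3 and 4, 41 by DESeq2 and 7 to 14 with 1 library left out. Depth, which differed between the groups, limits genes of few reads such as Egr2 and Inmt.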

Other observations

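Some called genes outside the naming rule encode receptors and signalling proteins, and were chosen after their values were seen. Rasl10a, a small GTPase gene, was 746, 647, 583 and 583 at ZT0 and 397, 379, 373 and 321 at ZT11.5, without overlap (log2 difference -0.80, SE 0.14, adjusted p = 0.00046 by limma). Camk2n1, which encodes an inhibitor of CaM kinase II, was 815 ± 33.5 and 573 ± 24.9 (SD, n = 4 each), also without overlap (-0.51, SE 0.08, adjusted p = 0.00024). Both kept their calls under every setting tried. The cholecystokinin receptor gene Cckbr was 229 ± 19.8 and 153 ± 23.5 (-0.59, adjusted p = 0.0063) and the thyroid hormone receptor gene Thra 389 ± 38.5 and 246 ± 32.7 (-0.66, adjusted p = 0.0073). These calls were lost without Dark ZT11.5 replicate 3 (adjusted p = 0.0915 and 0.0755) and with the levels of Prkcd and Tnnt1 as a term (0.0992 and 0.155). The neurotrophin receptor gene Ntrk3 (-0.59) and the beta-1 adrenergic receptor gene Adrb1 (-0.52) were called in 2 of the 8 fits without 1 library. Both lost their calls with the Prkcd and Tnnt1 term (adjusted p = 0.249 and 0.272). No filter, edgeR, and Ttr or Malat1 as a term lost them too.

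The higher genes outside the rule included Actb, which encodes beta-actin and is often used as a reference gene. Its group means were 6434 ± 247 and 8746 ± 558 (log2 difference 0.44, adjusted p = 0.0017), and it kept its call under every setting tried. Txnip, which encodes a thioredoxin-binding protein, was 68.0, 69.6, 63.4 and 68.8 at ZT0 and 112, 101, 100.4 and 124 at ZT11.5, without overlap (0.68, SE 0.18, adjusted p = 0.036). Its call was kept in 1 of the 8 fits without 1 library, that without Dark ZT11.5 replicate 2 (adjusted p otherwise up to 0.116). The call of Txnip was also lost with no filter (0.0558), with Ttr as a term (0.0508) and with the thalamic term (0.0798).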
